A study of Macaca mulatta with 12 samples.

Results

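Kappa light chains of blood B cells from rhesus macaques were described by their variable (V) and joining (J) genes, the length of complementarity-determining region 3 (CDR3) and the V family of the heavy chain in the same cell. A member was a productive kappa contig, an assembled receptor transcript, in a cell with exactly 1 productive light chain contig. This rule was met by 6761 of 7605 productive kappa contigs, in a series of 28676 productive receptor contigs of all chains. The 844 kappa contigs left out lay in cells with more than 1 light chain. Doublets were not called here, and what the authors did about them is not given in the sources used here. Whether cells with more than 1 light chain were doublets was not tested, and 23 kappa cells with 2 productive heavy chains were kept for V gene use but not for heavy chain comparisons. Of the 6761, 1137 lay in barcodes that were not in the expression table and 175 in cells annotated as contamination. The remaining 5449 kappa cells carried 1 of the 12 deposited subtype names, and all values below are of these cells unless another set is named.

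The animals were 6 juvenile macaques of Indian origin, healthy and unmanipulated, at 2 to 3 years of age. Mononuclear cells were taken from the blood of each, and a gene expression library and a B cell receptor library were made from the same cells with a 5′ droplet method. Both males were processed as batch 1 and all 4 females as batch 2, and the effects of sex and of batch cannot be told apart. Male 1 gave 1023 kappa cells, Male 2 918, Female 1 1139, Female 2 712, Female 3 1419 and Female 4 238, so that shares in Female 4 rest on the fewest cells.

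An antibody light chain is built from 1 of 2 loci, kappa or lambda, and a cell that expresses one normally keeps the other silent. At the kappa locus 1 IGKV gene is joined to 1 IGKJ gene, and the join forms CDR3. The V gene itself encodes CDR1 and CDR2, the other loops that touch antigen, held by 3 framework stretches. B cells that have met antigen can mutate these genes, and can exchange the IgM and IgD constant regions of the heavy chain for IgG, IgA or IgE, which is called class switching and leaves the light chain in place.

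The kappa calls were checked against the expression libraries. IGKC, the kappa constant gene, had at least 1 unique molecular identifier (UMI, a tag that counts 1 captured transcript) in 86.2% ± 3.87 of kappa cells and in 4.68% ± 0.800 of lambda cells (mean ± SD, n = 6 animals). The median depth was 5508 UMIs a cell in the kappa cells and 5586 in the lambda cells (means of the animals' medians). IGKV4-1 was found in the expression data of 73 of 73 cells with an IGKV4-1 contig and of 18 of 5376 other kappa cells. Contigs held a median of 26 kappa UMIs (quartiles 14 and 43), and 221 of 5449 held fewer than 5. Among the 6742 barcodes of the 6761 contigs, 19 occurred in the libraries of 2 animals. Expanded clones were few: 79 cells fell into 39 clones of at least 2 cells, and the largest clone had 3.

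The V regions below are those of the genes on which the comparisons turn. Each is the base sequence, from framework 1 to framework 3, that was carried without any difference by the most unswitched cells (IgM or IgD) with that gene name. They are printed 5′ to 3′ as the contigs give them, with CDR1 and CDR2 in capitals. No germline sequence was used, so each is a common sequence of these animals and not a reference allele.
IGKV3-40: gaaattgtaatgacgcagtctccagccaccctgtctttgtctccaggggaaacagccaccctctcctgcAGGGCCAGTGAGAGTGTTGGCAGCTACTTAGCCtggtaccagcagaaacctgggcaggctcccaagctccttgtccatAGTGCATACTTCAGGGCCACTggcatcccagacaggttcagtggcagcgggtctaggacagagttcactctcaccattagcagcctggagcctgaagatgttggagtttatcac
IGKV2-78: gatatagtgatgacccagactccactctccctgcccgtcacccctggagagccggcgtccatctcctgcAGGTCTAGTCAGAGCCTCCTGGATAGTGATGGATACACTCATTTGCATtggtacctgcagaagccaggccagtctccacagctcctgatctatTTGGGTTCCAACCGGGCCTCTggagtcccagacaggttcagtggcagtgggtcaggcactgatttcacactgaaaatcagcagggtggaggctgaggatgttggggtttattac
IGKV2-104: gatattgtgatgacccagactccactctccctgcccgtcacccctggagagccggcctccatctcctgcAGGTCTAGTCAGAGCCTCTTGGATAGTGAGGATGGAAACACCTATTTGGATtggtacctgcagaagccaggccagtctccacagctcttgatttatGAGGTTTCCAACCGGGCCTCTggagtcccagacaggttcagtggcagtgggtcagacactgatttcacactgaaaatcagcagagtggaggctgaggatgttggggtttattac
IGKV2-65: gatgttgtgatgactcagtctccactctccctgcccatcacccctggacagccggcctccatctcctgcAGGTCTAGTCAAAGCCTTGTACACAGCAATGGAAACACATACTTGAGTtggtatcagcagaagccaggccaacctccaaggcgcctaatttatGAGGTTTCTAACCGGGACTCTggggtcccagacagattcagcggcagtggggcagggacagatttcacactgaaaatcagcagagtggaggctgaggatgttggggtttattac
IGKV1-21: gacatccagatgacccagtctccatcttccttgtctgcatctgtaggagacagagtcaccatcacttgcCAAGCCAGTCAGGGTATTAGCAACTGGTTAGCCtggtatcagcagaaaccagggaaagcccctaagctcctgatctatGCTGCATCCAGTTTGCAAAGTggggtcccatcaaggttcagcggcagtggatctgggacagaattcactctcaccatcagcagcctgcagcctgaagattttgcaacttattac
IGKV1-22: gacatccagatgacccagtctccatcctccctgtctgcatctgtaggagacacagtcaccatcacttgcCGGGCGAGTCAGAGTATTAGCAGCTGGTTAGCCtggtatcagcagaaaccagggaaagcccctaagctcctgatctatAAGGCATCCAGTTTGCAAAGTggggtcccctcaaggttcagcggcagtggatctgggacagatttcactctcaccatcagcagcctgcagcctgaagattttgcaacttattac
IGKV1-32: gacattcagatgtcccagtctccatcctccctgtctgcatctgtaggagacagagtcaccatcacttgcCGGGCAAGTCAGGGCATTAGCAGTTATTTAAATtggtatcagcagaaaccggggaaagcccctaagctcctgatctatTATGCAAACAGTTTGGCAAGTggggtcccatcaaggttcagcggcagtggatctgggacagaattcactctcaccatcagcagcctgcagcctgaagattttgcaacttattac
IGKV4-1: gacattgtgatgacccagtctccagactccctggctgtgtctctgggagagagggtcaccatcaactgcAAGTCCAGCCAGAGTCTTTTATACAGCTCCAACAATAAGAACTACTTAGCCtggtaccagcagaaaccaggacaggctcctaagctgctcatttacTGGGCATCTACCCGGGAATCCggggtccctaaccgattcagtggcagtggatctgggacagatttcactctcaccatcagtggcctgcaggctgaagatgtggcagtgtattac
The IGKV3-40 sequence, of 261 bases, was the least varied of the 8: 45 of 54 unswitched IGKV3-40 cells (83.3%) carried it, from 4 animals. The IGKV4-1 sequence, of 279 bases, was found in 28 of 52 cells (53.8%) from all 6 animals. By contrast, the IGKV1-22 sequence was carried by 16 of 282 cells (5.67%), and that name covered several common sequences. The CDR1 stretch was 33 bases in the printed IGKV1 and IGKV3 genes, 48 in IGKV2-78 and IGKV2-65, and 51 in IGKV2-104 and IGKV4-1, while CDR2 was 21 bases throughout. The printed IGKV1-22 and IGKV1-21 sequences differed at 13 bases, while the closest common sequences of these names were 5 bases apart. The sequence closest to the IGKV3-40 one among the common sequences of other genes belonged to IGKV3-10 and differed at 20 bases, and the closest to IGKV4-1 differed at 68. Other names were closer: the nearest common sequences of IGKV2-65 and IGKV2-62 differed at 2 bases, and those of IGKV2-104 and IGKV2-86 at 3.

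Kappa cells used 56 IGKV genes, of which 30 were seen in all 6 animals. IGKV1 provided 26 of these genes, IGKV2 17 and IGKV3 8, and IGKV4 to IGKV7 1 or 2 each. The IGKV1 family made up 60.3% ± 2.02 of kappa cells (mean ± SD, n = 6 animals), with a range of 57.1% to 62.6%. IGKV2 made up 23.4% ± 3.11 and IGKV3 12.7% ± 2.44, and the 3 families did not overlap in any animal. IGKV4 (1.27% ± 0.605), IGKV6 (1.12% ± 0.442) and IGKV7 (1.05% ± 0.956) were rare, and IGKV7 was at 0 in Male 2 and Female 1.

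IGKV1-25 was the most used gene, at 9.66% ± 1.47 of kappa cells (mean ± SD, n = 6 animals). Its share was 9.68% in Male 1, 9.04% in Male 2, 9.92% in Female 1, 8.99% in Female 2, 12.3% in Female 3 and 7.98% in Female 4, so it was high in every animal. By mean share IGKV1-22 (7.35% ± 7.30), IGKV1-32 (7.30% ± 2.05), IGKV2-65 (5.65% ± 1.79), IGKV1-74 (4.41% ± 2.33), IGKV1-94 (4.16% ± 1.99), IGKV1-21 (4.12% ± 1.27) and IGKV1-18 (3.84% ± 3.83) came next. IGKV3-10 (3.67% ± 0.483, range 3.09% to 4.25%) and IGKV1-43 (3.04% ± 0.407, range 2.52% to 3.65%) completed the 10 most used genes and had the smallest SDs among them. Together the 10 made up 53.2% ± 4.89 of kappa cells.

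IGKV1-22, IGKV1-18 and IGKV1-74 differed strongly between animals. IGKV1-22 was at 3.23% in Male 1, 19.0% in Male 2, 13.1% in Female 1, 2.11% in Female 2, 0% in Female 3 and 6.72% in Female 4. It was the leading gene of Male 2 and Female 1, yet none of the 1419 kappa cells of Female 3 carried that name, which allows a share of up to 0.211%. IGKV1-18 ran from 9.29% in Male 1, 6.15% in Female 1 and 6.04% in Female 2 to 0.840% in Female 4, 0.654% in Male 2 and 1 cell in Female 3. IGKV1-74 was at 4.16% to 6.32% in 5 animals and at 0 of 918 cells in Male 2, which allows up to 0.327%. Among the 16 genes with a mean share of at least 2%, 3 were at 0 in an animal, the third being IGKV2-104, which was at 0 in Male 2 and at 5.18% in Female 1.

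**Figure D1:**
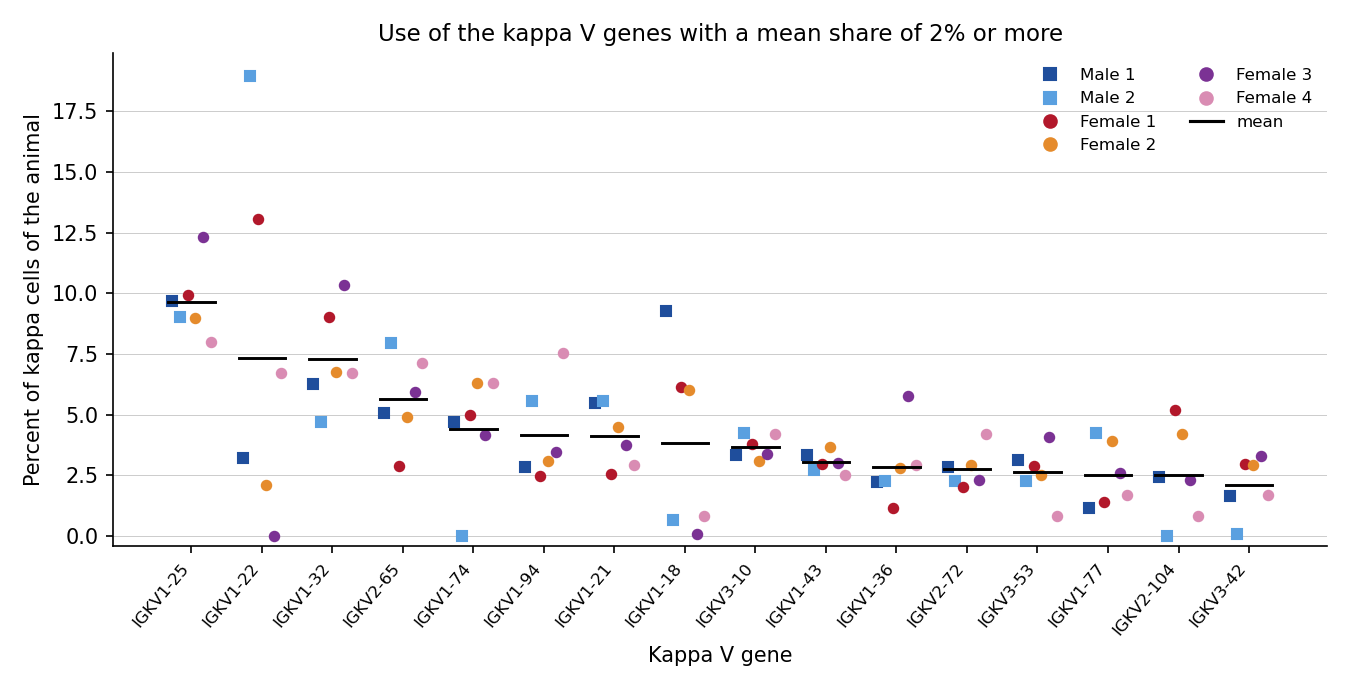
Percent of each animal's kappa cells that carried each of the 16 IGKV genes with a mean share of at least 2%; points are animals (squares males, circles females) and black lines the means over 6 animals. IGKV1-25 lies between 7.98% and 12.3% in every animal, whereas IGKV1-22 runs from 0% in Female 3 to 19.0% in Male 2.

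The names absent from an animal were looked at again by sequence, a choice made after the values were seen. The common IGKV1-22 sequences of the other animals differed at 6 or more bases from every kappa V region of Female 3, and the closest of those carried the name IGKV1-16. The common IGKV1-74 sequences differed at 13 or more bases from every V region of Male 2. For IGKV1-18 in Female 3 the smallest distance was 6 bases, to a cell named IGKV1-19. For IGKV2-104 in Male 2 it was 3 bases, to a cell named IGKV2-86, so here the absent name had a close neighbour in use. The values were the same when kappa cells outside the expression table were added: 0 of 1694 cells for IGKV1-22 in Female 3 and 0 of 1176 for IGKV1-74 in Male 2. Whether a gene was deleted, carried as an allele with another name or not rearranged was not tested.

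Animals also differed in how many common sequences stood behind a name. A common sequence was one carried without difference by at least 3 unswitched cells of an animal. In all, 130 distinct ones were found, 68 in 1 animal and 62 in at least 2. In 13 of 148 pairs of animal and gene name there were more than 2, while 1 unmutated gene on 2 chromosomes gives at most 2. Unswitched cells with mutated V regions were among those used, and whether a name held more than 1 gene was not tested. The 13 pairs belonged to 5 names. IGKV1-25 had up to 9 common sequences in an animal and 18 over all animals, IGKV1-22 up to 7, IGKV1-32 and IGKV2-104 up to 4 and IGKV1-18 up to 3. So the share of IGKV1-25 or IGKV1-22 is the share of a group of sequences under 1 name, while IGKV3-40 stood for 1 common sequence that was the same in 4 animals.

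Joining genes were used more evenly than V genes. IGKJ4 was in 29.8% ± 2.01 of kappa cells, IGKJ1 in 27.6% ± 0.626, IGKJ2 in 25.4% ± 1.89 and IGKJ3 in 17.2% ± 0.951 (mean ± SD, n = 6 animals), and IGKJ5 in 1 cell. Some V genes departed from this order. IGKV3-10 was joined to IGKJ2 in 44.7% ± 6.00 of its cells, with a range of 36.4% to 52.9% over 6 animals. IGKV1-32 was joined to IGKJ4 in 36.7% ± 11 and to IGKJ3 in 11.4% ± 7.09, and IGKV1-21 to IGKJ3 in 9.65% ± 4.11 (n = 5 animals). These pairings are given as values and were not tested.

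To ask whether B cell subtypes differ in kappa V genes, counts of kappa cells per gene were summed per animal and subtype and compared with edgeR's quasi-likelihood test, with the animal as a block. IGKV3-40, a small IGKV3 gene at 1.39% ± 0.812 of all kappa cells, was the gene that differed most: it was high in Naive B cells 1 and low in M-MZL BC and in Activated B cells. The F test over all subtypes called 4 of 34 genes at an adjusted p under 0.05 (11.8%), where adjustment was by the Benjamini-Hochberg method. They were IGKV3-40 (adjusted p = 2.48e-05), IGKV2-78 and IGKV2-104 (0.0203 each) and IGKV2-65 (0.0254). IGKV3-40, IGKV2-78 and IGKV2-104 were lower in M-MZL BC than in Naive B cells 1, and IGKV2-65 was higher in M-MBC 2. In single comparisons with Naive B cells 1, 9 of 306 pairs of gene and subtype passed (2.94%), 1 higher and 8 lower. M-MZL BC and M-MBC 2 held 3 each of 34 genes (8.82%), and Activated B cells, C-MBC 1 and CD11c+ MBC 1 held 1 each (2.94%). With TMM scaling the 9 pairs that passed were 0 higher and 9 lower, and with DESeq2 2 passed, both lower. Leaving out an animal moved the count to 2 without Male 1, 5 without Male 2 and 4 without Female 4.

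In Naive B cells 1, IGKV3-40 was at 6.74% in Male 1, 4.27% in Male 2, 3.92% in Female 1, 0% in Female 2, 4.46% in Female 3 and 3.13% in Female 4, or 29 of 620 cells. In M-MZL BC it was at 0.909% in Male 2, 0.775% in Female 1 and 0% in the other 4 animals, or 2 of 739 cells. The share was thus lower in M-MZL BC in each of the 5 animals that had the gene in Naive B cells 1, with a log2 difference of -3.49 ± 0.69 (SE, adjusted p = 0.000143). This call was lost without Male 1 (log2 -2.76, adjusted p = 0.0810) and kept in the other 12 of 13 alternatives. In Activated B cells none of 365 kappa cells carried it, which allows up to 0.822% (adjusted p = 0.000364, edgeR's quasi-likelihood test). The pooled share in Naive B cells 1, 4.68%, was 5.69 times that upper limit. This ratio leaves out the counting error in Naive B cells 1 and the spread between animals. IGKV3-40 was also lower in M-MBC 2 (2 of 346 cells, log2 -2.62 ± 0.79), in C-MBC 1 (5 of 564, -2.05 ± 0.62) and in CD11c+ MBC 1 (12 of 904, -1.65 ± 0.52). The adjusted p of the first and second was 0.0390, and that of the last, 0.04999, lay at the threshold. These calls were lost in 8, 8 and 11 of 13 alternatives. In M-MBC 1 (17 of 979 cells), CD11c+ MBC 2 (17 of 669) and C-MBC 2 (3 of 191) the difference did not pass the test.

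The 88 IGKV3-40 cells were 88 different clones with 42 distinct CDR3 sequences. IGKJ4 was used in 51.1% of them and IGKJ1 in 28.4%. The most frequent CDR3 sequences of the gene are printed with the first and last conserved codon in lower case and the CDR3 between them in capitals, because they are the joins this gene formed most often.
IGKV3-40 with IGKJ1: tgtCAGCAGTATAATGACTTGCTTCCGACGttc
IGKV3-40 with IGKJ4: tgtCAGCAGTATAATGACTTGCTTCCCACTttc
The first was found in 10 cells and the second in 8, each in 4 animals. The contigs of all 88 IGKV3-40 cells held a median of 19 kappa UMIs.

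Of the other called genes, IGKV2-78 was found in 14 of 620 cells of Naive B cells 1. In M-MZL BC it was in 0 of 739 (adjusted p = 0.00145, edgeR's quasi-likelihood test), which allows up to 0.406%. The pooled Naive B cells 1 share of 2.26% was 5.56 times that limit, with its own counting error left out. The 14 cells came from Male 1 (3.37%), Male 2 (5.13%) and Female 4 (6.25%), and the gene was at 0 in Naive B cells 1 of the other 3 animals. IGKV2-78 had 51 kappa cells in all and reached the minimum of 50 for a test only with these 14. Its entry into the test was thus tied to the subtype in which it was high. Its call in M-MZL BC was kept without the low-count filter. IGKV2-104 was at 24 of 620 against 6 of 739 cells (log2 -2.14 ± 0.61, adjusted p = 0.03). Its share in Naive B cells 1 was 2.81% in Male 1, 9.80% in Female 1, 11.8% in Female 2 and 3.19% in Female 3, and it was lower in M-MZL BC in all 4, while Female 4 had it at 0% and 1.47%. IGKV1-74 was lower in M-MBC 2 (2 of 346 against 33 of 620 cells, log2 -2.84 ± 0.79, adjusted p = 0.0265). It was lower in the 5 animals that carry the name, and its F test over subtypes did not pass.

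IGKV2-65 moved the other way. In M-MBC 2 it was at 6.67% of 45 kappa cells in Male 1, 15.2% of 99 in Male 2 and 5.0% of 120 in Female 1. The shares were 15.6% of 32 in Female 2, 7.69% of 39 in Female 3 and 18.2% of only 11 in Female 4. In Naive B cells 1 the same animals had 6.18%, 4.27%, 1.96%, 0%, 3.82% and 0%. The share was higher in M-MBC 2 in 6 of 6 animals (log2 1.43 ± 0.43, adjusted p = 0.0390), although the ranges of both subtypes overlap through Male 1 and Female 1. The call was lost in 9 of 13 alternative analyses.

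**Figure D2:**
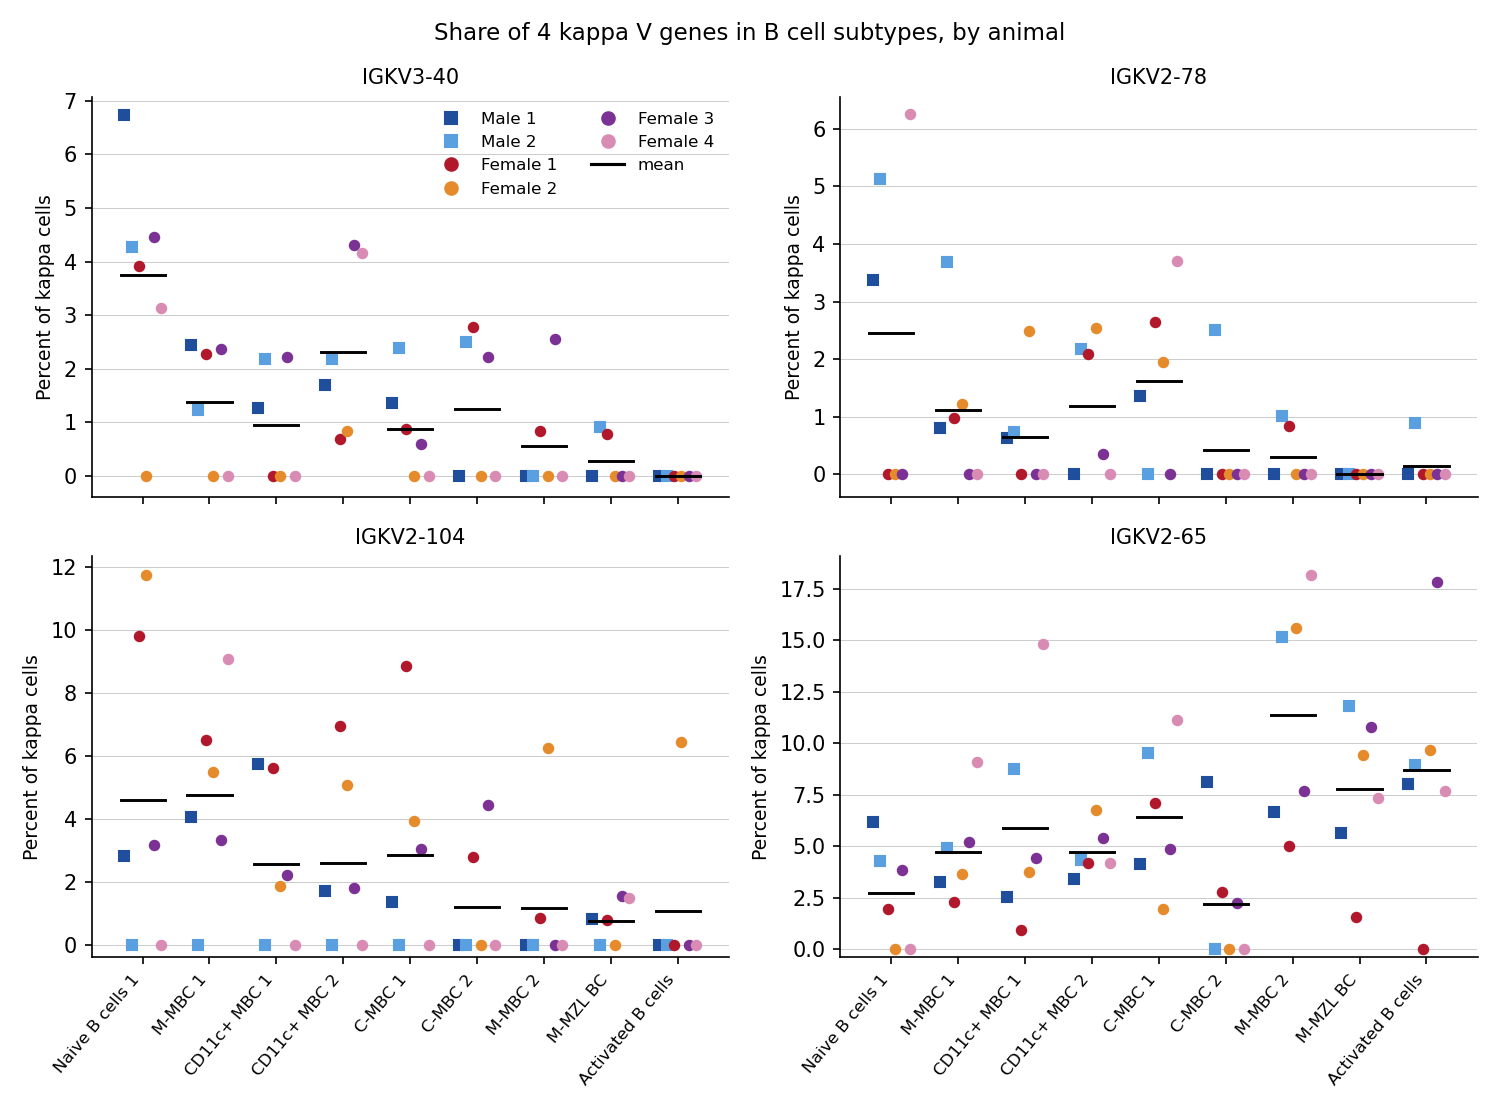
Percent of kappa cells with IGKV3-40, IGKV2-78, IGKV2-104 and IGKV2-65 (panels) in the 9 subtypes with at least 10 kappa cells in all 6 animals; points are animals and black lines the means. IGKV3-40 is highest in Naive B cells 1, at up to 6.74%, and at 0% in Activated B cells of all animals, while IGKV2-65 reaches 18.2% in M-MBC 2.

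The depth of the kappa contigs differed between subtypes, with a median of 18 kappa UMIs in Naive B cells 1, 38 in M-MZL BC, 42 in M-MBC 2 and 41 in Activated B cells. The part of depth in these differences was examined only by leaving out contigs with fewer than 5 UMIs, which again gave 9 calls, 3 higher and 6 lower. Whether immunoglobulin genes entered the clustering behind the subtype names is not given in the sources used here, so it is unknown whether the names are independent of V gene use.

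Joining genes and CDR3 length were compared between subtypes with exact two-sided sign-flip permutation tests over animals, for which 6 animals allow no p below 0.03125. Among 32 comparisons of an IGKJ gene with Naive B cells 1, 4 reached that p and none passed adjustment (adjusted p = 0.25, exact permutation test). IGKJ1 was at 33.1% in M-MZL BC and 26.5% in Naive B cells 1 (difference 6.55 ± 5.80 percentage points, SD), higher in 6 of 6 animals. IGKJ3 was at 14.4% and 19.0% in the same subtypes (difference -4.57 ± 2.97), lower in 6 of 6. IGKJ3 was also lower in CD11c+ MBC 1 (15.8%) and IGKJ4 higher in M-MBC 1 (33.1% against 28.2%) in all 6 animals.

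Class-switched and unswitched cells were compared next, in the 4650 kappa cells with exactly 1 heavy chain of known class. IGKV1-21, whose sequence is printed above, made up a smaller share of switched cells in every animal and was the only 1 of 27 genes called (3.7%). In switched cells it was at 0.840% in Male 1, 2.63% in Male 2, 1.42% in Female 1, 4.35% in Female 2, 2.36% in Female 3 and 1.27% in Female 4, or 24 of 1085 cells. In unswitched cells the shares were 5.84%, 6.21%, 3.02%, 5.04%, 5.16% and 3.62%, or 176 of 3565 cells. The log2 difference was -1.12 ± 0.27 (SE, adjusted p = 0.00274, edgeR's quasi-likelihood test), and the animals' shares overlapped only through Female 2. By class, IGKV1-21 was at 4.93% ± 1.5 of IgM cells, 5.66% ± 2.04 of IgD cells and 2.10% ± 1.66 of IgG cells (mean ± SD, n = 6 animals). The call was lost with DESeq2 (adjusted p = 0.130) and when the memory subtype was a block beside the animal (log2 -0.72, adjusted p = 0.235).

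No other gene passed between switched and unswitched cells of all 6 animals, and 2 genes passed without Male 1 or without Female 1. IGKV1-94 had the next smallest p, with a log2 difference of -0.79 ± 0.29 (adjusted p = 0.0957, edgeR's quasi-likelihood test). IGKV3-40 was at 22 of 1085 switched and 54 of 3565 unswitched cells. The families did not pass either (0 of 5, exact sign-flip permutation tests). IGKV3 was at 9.95% ± 3.57 of switched and 13.8% ± 1.95 of unswitched cells and lower in 5 of 6 animals (adjusted p = 0.3125). IGKV2 was at 26.8% ± 2.60 and 22.4% ± 5.27 and higher in 5 of 6 (adjusted p = 0.391). The IGKJ genes gave 0 of 4, with IGKJ3 at 18.4% and 17.0% (adjusted p = 0.25, exact permutation test).

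Pairing with the heavy chain was examined in the 4702 kappa cells with exactly 1 productive heavy chain, by comparing cells with an IGHV4 and cells with an IGHV3 heavy chain, the 2 largest heavy V families. IGHV4 was found in 51.0% of these cells and IGHV3 in 36.1%. Of 25 IGKV genes, 5 differed between IGHV4 and IGHV3 cells (20%), 3 with a higher and 2 with a lower share in IGHV4 cells. With TMM scaling 4 passed, 3 higher and 1 lower, and with DESeq2 2 passed, IGKV3-40 higher and IGKV4-1 lower.

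IGKV1-32 was the most used of the 5. Its share in IGHV4 cells was 8.35% in Male 1, 4.89% in Male 2, 11.3% in Female 1, 7.19% in Female 2, 13.0% in Female 3 and 9.09% in Female 4. In IGHV3 cells it was 4.56%, 3.44%, 6.60%, 6.56%, 6.88% and 4.55%, lower in 6 of 6 animals (log2 0.75 ± 0.17, adjusted p = 0.000451). IGKV3-40 stood out here as it did between subtypes. It was in 57 of 2398 IGHV4 cells and 9 of 1699 IGHV3 cells, and higher with IGHV4 in the 5 animals that had it in such cells (log2 2.10 ± 0.50, adjusted p = 0.000687). IGKV1-37 was at 2.29% ± 0.530 of IGHV4 and 0.867% ± 0.442 of IGHV3 cells and higher in 6 of 6 animals (log2 1.5 ± 0.45, adjusted p = 0.00809, edgeR's quasi-likelihood test). Over all kappa cells, 59 of 98 contigs with this name had incomplete regions in the deposited annotation.

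IGKV4-1, the only IGKV4 gene seen, was paired the other way, in 17 of 2398 IGHV4 cells and 37 of 1699 IGHV3 cells (log2 -1.54 ± 0.47, adjusted p = 0.00809). Female 2 had 2 such cells with IGHV4 and 1 with IGHV3, and Female 4 had none; the share was lower with IGHV4 in the other 4 animals. IGKV2-65 was at 4.75% ± 1.64 of IGHV4 and 7.27% ± 2.92 of IGHV3 cells, lower in 5 of 6 animals. This call (log2 -0.57 ± 0.20, adjusted p = 0.0240, edgeR's quasi-likelihood test) was lost in 9 of 14 alternatives. An IGHV4 chain was in 59.1% of 22 IGKV2-65 cells of Naive B cells 1 and in 30% of 50 of M-MZL BC. This fall was not particular to IGKV2-65. The shares were 71.9% of 32 and 39.4% of 33 cells for IGKV1-74, and 59.3% of 27 and 41.4% of 29 for IGKV1-21. For IGKV2-104 and IGKV3-40, M-MZL BC held only 5 and 2 such cells, at 40% and 100%. The animal was the block in the comparison of IGHV4 and IGHV3 cells and the subtype was not. The part of subtype in the pairing was not tested. Without Female 3 no gene passed (0 of 17 in edgeR, 4 at an unadjusted p under 0.05), without Male 1 2 passed and without Male 2 3 passed. Without Female 3, IGKV3-40 fell below the minimum of 50 cells that a gene needed to be tested. That minimum was counted over IGHV4 and IGHV3 cells together. IGKV3-40 and IGKV1-37 met it through their 57 and 58 IGHV4 cells, and IGKV4-1 mainly through its 37 IGHV3 cells. Their entry into the test was thus tied to the group in which they were high. Without the low-count filter IGKV3-40, IGKV1-37, IGKV4-1 and IGKV1-32 passed, and IGKV2-65 did not.

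Seen from the V gene, 57 of 76 IGKV3-40 cells had an IGHV4 heavy chain (75%, exact 95% interval 63.7% to 84.2%). The share was 67.4% for IGKV1-37, 62.7% for IGKV1-32, 43.8% for IGKV2-65 and 25.8% for IGKV4-1. The most frequent single partner of IGKV3-40, IGHV4-122, was in 8 of the 76 cells. Within Naive B cells 1, 74.1% of 27 IGKV3-40 cells had an IGHV4 chain. Other genes there ranged widely, from 33.3% of 12 IGKV2-78 cells to 71.9% of 32 IGKV1-74 cells. The IGHV4 share of all kappa cells of that subtype is not given here, and pairing within it was not tested. At the level of whole families no pair passed (0 of 5, exact sign-flip permutation tests). IGKV2 with IGHV3 was observed in 426 cells against 374 expected from the family shares of each animal, a mean log2 ratio of 0.18 ± 0.14 (SD), above 0 in 5 of 6 animals (adjusted p = 0.104).

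**Figure D3:**
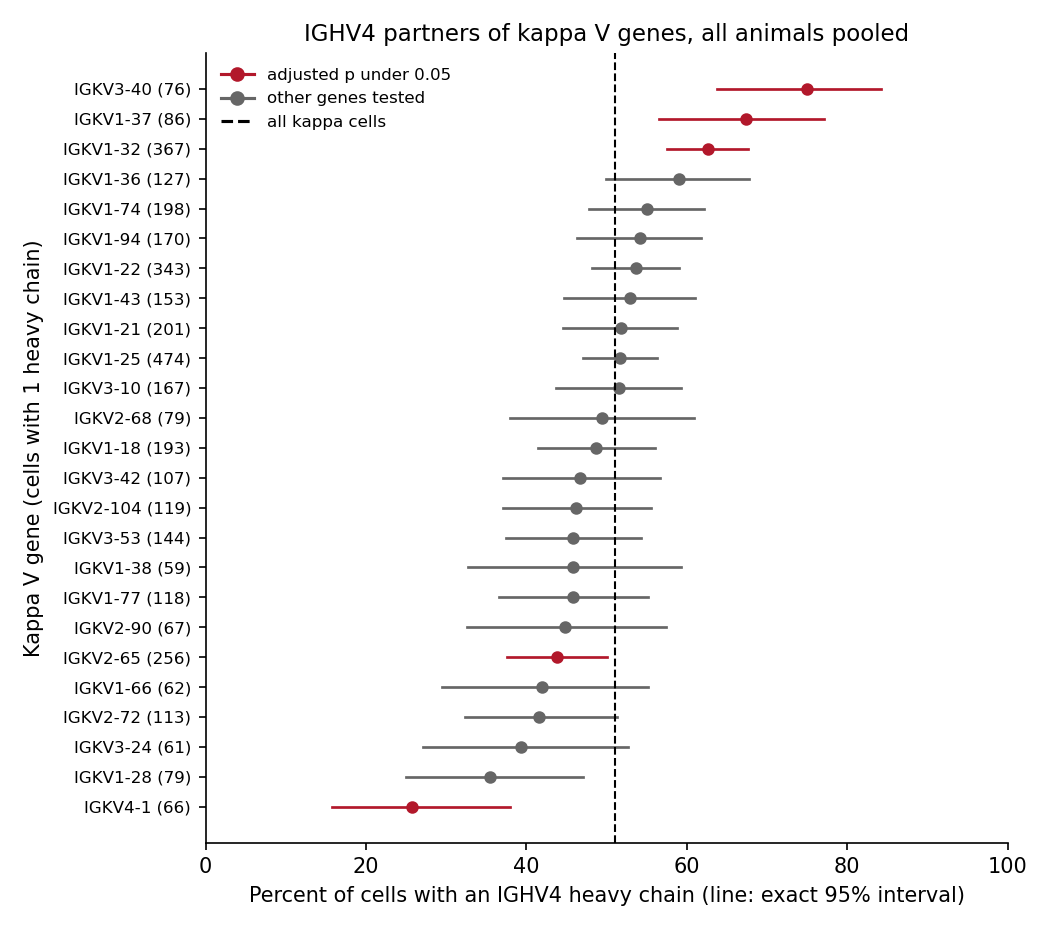
Percent of cells with an IGHV4 heavy chain for the 25 IGKV genes tested, all animals pooled; lines are exact 95% binomial intervals, which cover counting error only, red marks an adjusted p under 0.05 and the dashed line is the 51.0% of all kappa cells. IGKV3-40 (75%), IGKV1-37 (67.4%) and IGKV1-32 (62.7%) lie above the line, and IGKV4-1 (25.8%) is the lowest.

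Males and females, which are also the batches, were compared as the only split of the animals. None of 34 IGKV genes passed (0%), none had an unadjusted p under 0.05, and DESeq2 called none either. Without Male 1 the count was 3, but the male arm was then Male 2 alone, assumed to vary as the females do, and the 3 genes, IGKV1-38, IGKV1-74 and IGKV3-42, were at 0, 0 and 1 cell in Male 2.

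Kappa CDR3, counted in amino acids without the conserved first and last residue, was nearly fixed in length. Of 5449 cells, 4796 (88.0%) had 9 amino acids, 492 (9.03%) had 8 and 148 (2.72%) had 10, and the range was 6 to 12. Short CDR3 were most frequent in IGKV3. A length of 8 was found in 41.1% ± 4.85 of IGKV3 cells, 8.34% ± 3.70 of IGKV2 cells and 2.12% ± 1.16 of IGKV1 cells (mean ± SD, n = 6 animals). The range of IGKV3 did not overlap those of IGKV2 and IGKV1. IGKV3-10 alone gave 178 of the 492 cells, and 90.5% ± 3.82 of its cells had 8 amino acids. IGKV3-42 gave 64, at 50.5% ± 32.2 of its cells (n = 4 animals). The length was not shared by all IGKV3 genes: IGKV3-24 was at 6.80% ± 5.76 (n = 4 animals) and IGKV3-53 at 4.12% ± 4.66 (n = 5 animals). By joining gene, 11.1% of IGKJ2 cells, 10.4% of IGKJ1 cells, 6.94% of IGKJ4 cells and 4.58% of IGKJ3 cells had that length.

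CDR3 length hardly changed with subtype or class. The mean was 8.95 in switched and 8.94 in unswitched cells, a difference of 0.0107 ± 0.0202 (SD) amino acids (p = 0.25, exact sign-flip permutation test). Against Naive B cells 1 none of 8 subtypes passed, and the smallest p, for M-MBC 1, came with a difference of 0.0442 ± 0.0482 amino acids (adjusted p = 0.75, exact permutation test).

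How far the V regions had moved from the common sequences was measured as the number of base differences per 100 bases between a contig and the nearest common sequence of the same animal and gene name. A common sequence was available for 4736 of 5449 cells (86.9%). It was built from unswitched cells, so it can lie closer to unswitched than to switched cells by its construction. In switched cells the mean was 2.89 in Male 1, 3.15 in Male 2, 3.88 in Female 1, 3.63 in Female 2 and 3.03 in Female 3. In unswitched cells of the same animals it was 0.780, 1.00, 0.907, 0.937 and 0.691. The groups did not overlap. The difference was 2.46 ± 0.334 (SD) over all 6 animals and was positive in 6 of 6 (p = 0.03125, exact sign-flip permutation test, the smallest that 6 animals can give). Female 4 entered with 1 switched and 5 unswitched cells, and without it the difference was 2.45 (p = 0.0625, the smallest that an exact test over 5 animals can give).

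Subtypes differed widely in this distance. Naive B cells 1 were at 0.119 ± 0.0388 differences per 100 bases, M-MBC 1 at 0.446 ± 0.209 and CD11c+ MBC 1 at 0.892 ± 0.382 (mean ± SD, n = 5 animals). M-MZL BC were at 1.52 ± 0.272, M-MBC 2 at 1.62 ± 0.212 and Activated B cells at 2.10 ± 0.636. The highest were CD11c+ MBC 2 at 3.16 ± 0.668, C-MBC 2 at 3.38 ± 0.265 and C-MBC 1 at 4.06 ± 0.704. All 8 were higher than Naive B cells 1 in 5 of 5 animals (p = 0.0625 and adjusted p = 0.0625 each, exact permutation test, the smallest that 5 animals can give). The common sequences came from unswitched cells of any subtype, those of Naive B cells 1 among them. They can thus lie closer to Naive B cells 1 by construction, which favours this direction. Each pair of neighbours in this order above Naive B cells 1 overlapped. Both CD11c+ subtypes were far apart, with 55.1% ± 10.7 of CD11c+ MBC 1 cells and 12.2% ± 8.63 of CD11c+ MBC 2 cells free of any difference. In Naive B cells 1 that share was 94.2% ± 2.51 and in M-MZL BC 23.8% ± 2.66. Naive B cells 2, not tested or plotted because only 2 animals had at least 10 such cells, were at 1.26 differences per 100 bases in Male 1 (10 cells) and 1.72 in Female 3 (13 cells), near M-MZL BC and above Naive B cells 1. A mean of 45.4% ± 20.7 of those cells were free of any difference (SD, n = 2 animals). Their contigs held a median of 6 kappa UMIs, against 18 in Naive B cells 1, and the part of this depth in the distance was not tested.

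**Figure D4:**
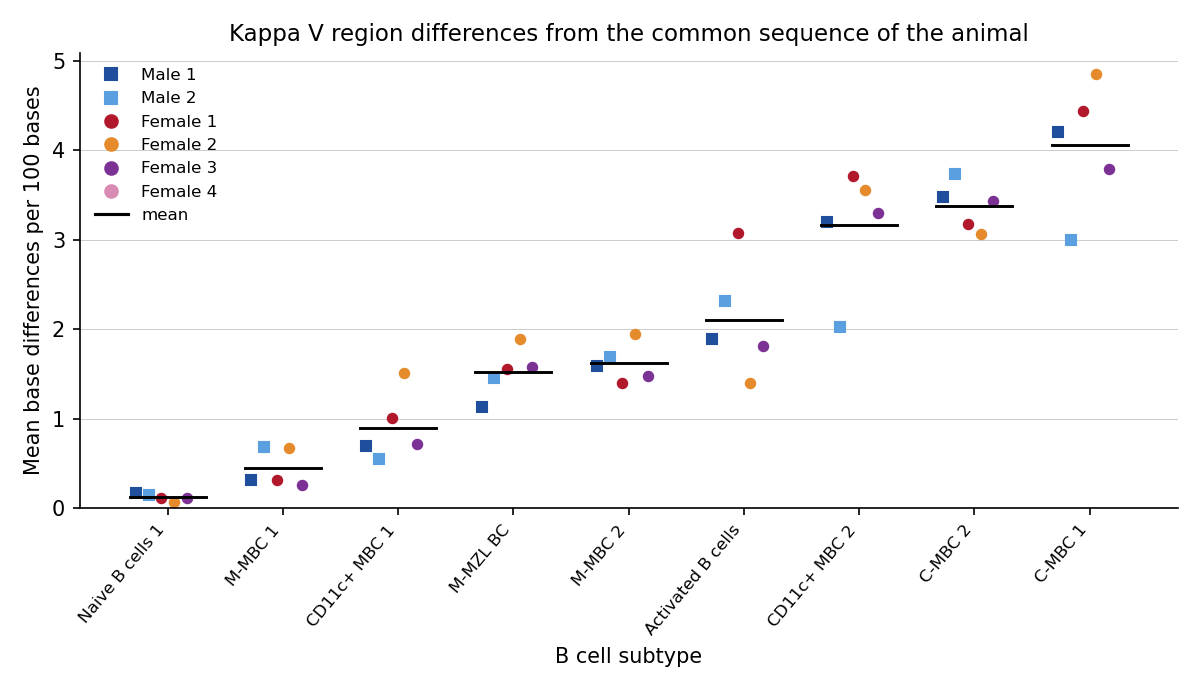
Mean base differences per 100 bases between kappa V regions and the nearest common sequence of the animal, by subtype; points are the 5 animals with at least 10 such cells, black lines their means, and Female 4, named in the key, had too few cells to be plotted. Values rise from 0.119 in Naive B cells 1 to 4.06 in C-MBC 1.

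By heavy chain class the distance was 0.415 ± 0.131 in IgD cells, 1.02 ± 0.201 in IgM cells and 3.25 ± 0.486 in IgG cells (mean ± SD, n = 5 animals), and 3.59 ± 0.793 in IgA cells of 3 animals. Over all genes with a common sequence, differences per base were more frequent in CDR1 and CDR2 than in the frameworks. Switched cells had 6.23 ± 0.882 differences per 100 bases in CDR1 and CDR2 and 2.5 ± 0.362 in the frameworks. In unswitched cells these were 1.71 ± 0.265 and 0.629 ± 0.0935, so the ratio of CDR to framework was 2.5 ± 0.226 in switched and 2.72 ± 0.188 in unswitched cells. Among named genes in switched cells, IGKV1-32 averaged 4.21 differences per 100 bases over 96 cells and IGKV1-21 2.25 over 23 cells, pooled over animals and not tested.

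The same kappa CDR3 was often found in different animals. Of 2956 distinct CDR3 base sequences 415 (14.0%) were found in at least 2 animals, and these were carried by 2696 cells (49.5%). By animal the share of cells with such a sequence was 47.8% ± 6.00 (mean ± SD, n = 6), lowest in Female 4 at 37.8%, the animal with the fewest cells. In all 6 animals 10 sequences were found, in 195 cells. The 4 most frequent are printed with the conserved end codons in lower case, because they show which V and J genes met in every animal.
IGKV3-10 with IGKJ2: tgcTATCAGCATAGCAGCGGGTACAGTttt
IGKV3-10 with IGKJ1: tgcTATCAGCATAGCAGCGGGTGGACGttc
IGKV2-72 with IGKJ2: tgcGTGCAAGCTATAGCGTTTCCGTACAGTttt
IGKV1-21 with IGKJ1: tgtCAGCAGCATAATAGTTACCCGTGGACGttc
The first was in 47 cells, with 3 in Male 1, 10 in Male 2, 12 in Female 1, 6 in Female 2, 13 in Female 3 and 3 in Female 4. Those 47 cells lay in 9 subtypes and carried 43 different heavy CDR3 sequences, so they were not 1 clone. The second was in 31 cells, 27 of them unswitched and none switched, the third in 22 and the last in 16, of which 14 were named IGKV1-21. Both IGKV3-10 sequences have a CDR3 of 8 amino acids.

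Cells with a shared CDR3 were most frequent where V regions were closest to the common sequence. They made up 75.6% ± 6.45 of Naive B cells 1, 70.3% of M-MBC 1, 58.4% of CD11c+ MBC 1, 43.8% of M-MZL BC, 20.6% of C-MBC 1 and 18.7% of C-MBC 2 (means over 6 animals). In switched cells the share was 27.9% ± 5.70, with a range of 17.7% to 33.3%, and in unswitched cells 58.8% ± 4.81, with a range of 52.2% to 64.4%, so the classes did not overlap. Among cells without any V region difference it was 83.5% ± 8.50 in switched cells (n = 4 animals) and 77.5% ± 4.23 in unswitched cells (n = 5 animals), where the ranges overlapped. None of these shares was tested, and all depend on how many cells were sampled from each animal.

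**Figure D5:**
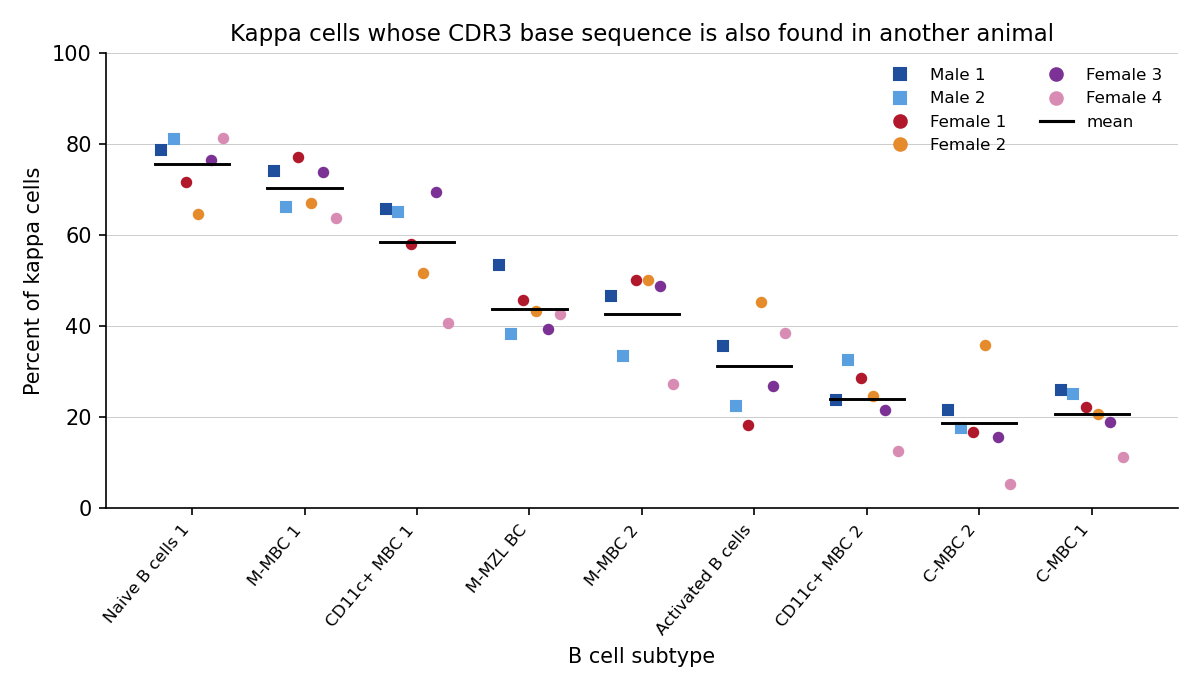
Percent of kappa cells whose CDR3 base sequence was also found in another animal, by subtype and in the order of the plot of base differences; points are animals and black lines the means over 6 animals. The mean falls from 75.6% in Naive B cells 1 to 18.7% in C-MBC 2 and 20.6% in C-MBC 1.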

How the data were processed

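Gene expression and B cell receptor libraries of 6 animals (12 libraries) were used. The submitters' processing notes name Seurat 5.0.1, Cell Ranger 9.0.1 and R 4.3.1. Neither the genome build nor the immunoglobulin reference is given in the sources used here. Kappa members were read from what the authors deposited: annotated contigs with whole-number UMI and read counts, a count matrix of UMIs per gene and cell, and a cell table with subtype names, which were taken as they stand. Gene names, regions and CDR3 calls are those of the deposited contig tables, and 60 contigs with incomplete regions (59 of them IGKV1-37) were left out of V region comparisons. No other column of per-sample values was used (0).

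Counts of kappa cells per IGKV gene were summed per animal and group (sums of at least 10 kappa cells, genes with at least 50) and tested with edgeR 4.0.16 in R 4.3.3, with the number of kappa cells as library size, a block term for the animal and p adjusted by Benjamini-Hochberg, called at an adjusted p under 0.05. No TMM factor was used. The pairing comes from the animal, since every subtype, class and heavy family was taken from the same animal; only the sexes had no block. Single values were tested by exact two-sided sign-flip permutation over animals (Python 3.11.15, scipy 1.17.1), and base differences were counted with edlib 1.3.9.post1. Scripts were tested on simulated data. The edgeR comparisons held 34, 27, 25 and 34 genes.

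Named genes were the 10 most used, up to 5 called genes per direction in each comparison with the largest change, every family at 1% or more and every IGKJ gene. Members, lists and tests were chosen with earlier results of these data known. Alternatives were no low-count filter, TMM factors, DESeq2 1.42.0, 1 cell per clone, at least 5 UMIs, no block, larger sums, each animal left out and, chosen after seeing the data, adding kappa cells outside the expression table. Shares have exact Clopper-Pearson 95% intervals and, at 0, the upper limit that 3 counts give; both cover counting error only. The spread between animals is biological, with the noise of 1 library each in it.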

Additional observations from a re-analysis of the deposited data

Results flagged for a closer look

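Over 58 sets of 6 animals, an animal lay far from the other 5 in 4 sets; chance gives about 1 in 20. IGKV1-74 was at 0% of kappa cells in Male 2, against 4.16% to 6.32% in the others. The mean kappa CDR3 length was 8.97 amino acids in Female 4, the animal with 238 kappa cells, against 8.93 to 8.94 in the others. The IGKV2 share was lower in switched than in unswitched cells of Female 4, by a difference of -7.29 percentage points, while it was higher by 4.69 to 8.68 points in the other 5 animals. The log2 ratio of observed to expected IGKV2 cells with an IGHV4 heavy chain was 0.13 in Male 2 and below 0 in the other 5 animals.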

How the results depend on the processing

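Over 235 alternative values of 19 named gene results, 156 stayed on the same side of the threshold, 79 were no longer called and 0 changed direction. The F test over subtypes, with 4 genes called, gave 7 without the low-count filter, 10 with TMM factors and 2 to 4 with an animal left out (2 without Male 1, Male 2 or Female 4). Single comparisons, with 9 called, gave 4 without the filter, 2 with DESeq2, 5 with sums of at least 20 kappa cells and 2 to 12 with an animal left out. Without the replicate block, which pairs sums by animal, the F test called 1, single comparisons 3, switching 0 (3 at an unadjusted p under 0.05) and heavy families 0 (4). Switching, with 1 called, gave 0 with DESeq2 and 0 with animal and memory subtype as blocks (3 at an unadjusted p under 0.05 each), and 1 to 2 with an animal left out. Heavy families, with 5 called, gave 2 with DESeq2, 2 in unswitched cells alone and 0 to 6 with an animal left out. The sexes gave 0 to 3 with an animal left out, the 3 resting on Male 2 alone. The difference in V region distance between switched and unswitched cells was 2.59 when a common sequence needed 5 cells (p = 0.0625, exact permutation test, 5 animals) and 2.35 to 2.52 with an animal left out, where 0.0625 is the smallest possible p. IGKV3-40 kept its F test and its difference in Activated B cells in 13 of 13 alternatives, and in M-MZL BC in 12, the exception being without Male 1 (log2 -2.76, adjusted p = 0.0810). Of the other called pairs, IGKV3-40 lost its call in 8 of 13 alternatives in M-MBC 2, 8 in C-MBC 1 and 11 in CD11c+ MBC 1, IGKV2-104 in 6 of 13 and IGKV1-74 in 4 of 13; the cause was not tested. IGKV2-78 in M-MZL BC was lost with DESeq2 (adjusted p = 0.0783), and 5 of 6 animals left out put it under the minimum of 50 cells. The IGHV4 comparison within Naive B cells 1 was not run, as no gene reached 50 cells there.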
